A study of Rattus norvegicus with 12 samples.

Results

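The transcripts of 5 enzymes that handle reactive oxygen species and heme were followed in rat urethral tissue after mechanical injury, with and without treatment. They were heme oxygenase 1 (Hmox1, ENSRNOG00000014117), the quinone reductase Nqo1 (ENSRNOG00000012772), the superoxide dismutases Sod1 (ENSRNOG00000002115) and Sod2 (ENSRNOG00000019048), and catalase (Cat, ENSRNOG00000008364). They were chosen by Ensembl ID for their function, as 5 of the 32623 genes in the count table, with earlier results of these data known. All 5 passed the filter on low counts that left 17521 genes for testing. The pairing of these IDs with symbols came with the list of members and was not checked against another table, because the gene table used here carries no Ensembl IDs.

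RNA was sequenced from urethral tissue of male rats in 4 groups of 3 libraries: sham without urethral injury, urethral injury, urethral injury with rapamycin (an inhibitor of the mTOR kinase), and urethral injury with a tetrahedral DNA nanostructure (TDN), a particle assembled from synthetic DNA strands. Mechanical injury is thus shared by 9 of the 12 libraries, and the study set out to characterise expression changes after injury and after TDN. Strain, age, dose, route and time of harvest are not in the labels used here, nor is it stated whether untreated injury included vehicle. Whether each library is a separate animal is not stated either. The p-values below therefore reflect the spread among these libraries only, which may be technical.

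Reactive oxygen species form when cells leak electrons from mitochondria or when recruited leukocytes release superoxide. Superoxide dismutases turn superoxide into hydrogen peroxide, Sod1 mainly in the cytosol and Sod2 in mitochondria, and catalase breaks hydrogen peroxide down in peroxisomes. Hmox1 splits heme into biliverdin, iron and carbon monoxide, and Nqo1 reduces quinones without releasing radicals. Hmox1 and Nqo1 are textbook targets of the transcription factor NRF2, which binds antioxidant response elements, and Sod2 is known to be induced by inflammatory cytokines.

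Levels are given as CPM, the counts of a gene relative to the total of its library, after correction of that total for differences in composition (TMM factors). Total counts ran from 44765817 to 55928721 per library. The smallest count of any member in any library was 363, which corresponds to a counting error of 5.25%. Counting error was therefore small beside the spread between libraries, and it is the only error that counts themselves reveal. Rapamycin replicate 2 stood apart, with 17475 detected genes (18659 to 19254 elsewhere) and the lowest TMM factor, 0.660 (0.873 to 1.13 elsewhere). Levels in tissue RNA cannot tell a change in the number of cells of a type from a change in RNA per cell, and the markers fixed for the tissue and for other cell types were not evaluated, because no symbols could be paired with the IDs.

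The stretch upstream of the transcription start is shown for the superoxide dismutases, which catalyse the same reaction but had different levels across the groups below. The sequences are from RefSeq (build GRCr8), where 4 of the 5 members had an entry and Hmox1 had none. They were matched by symbol and are given 5′ to 3′ on the gene's strand, as the 250 bases before the start. Sod2 lies at chr1:50050169-50050418 on the minus strand and Sod1 at chr11:42942573-42942822 on the plus strand. Capitals mark matches on either strand to the core of the antioxidant response element (TGACNNNGC), the TATA box (TATAAA), the GC box (GGGCGG) and the CCAAT box (CCAAT).
Sod2: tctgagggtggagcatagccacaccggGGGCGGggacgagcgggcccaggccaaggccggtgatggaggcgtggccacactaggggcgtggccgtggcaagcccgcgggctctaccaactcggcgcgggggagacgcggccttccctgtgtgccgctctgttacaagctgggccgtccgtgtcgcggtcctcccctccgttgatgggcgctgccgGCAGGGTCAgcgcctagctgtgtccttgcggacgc
Sod1: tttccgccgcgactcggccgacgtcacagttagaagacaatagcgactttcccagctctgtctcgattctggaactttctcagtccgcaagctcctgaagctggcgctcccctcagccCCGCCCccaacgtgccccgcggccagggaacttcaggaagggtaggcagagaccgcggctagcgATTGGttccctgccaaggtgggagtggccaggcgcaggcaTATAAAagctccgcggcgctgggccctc
The antioxidant response core had 1 match in Sod2, on the strand opposite to the gene's, so that it reads GCAGGGTCA as printed. The first printed base of this match lies 35 bases upstream of the start. There was no match to the core in the stretches of Sod1, Nqo1 or Cat. The same letters occurred in 10.1% of the 33469 promoters searched over the same 250 bases. The TATA box was found in Sod1 and Nqo1 and in 12.9% of all promoters, and the GC box in Sod1, Nqo1 and Sod2 and in 30.5% of all promoters. The CCAAT box was found in Sod1, Nqo1 and Cat and in 34.0% of all promoters. No match overlapped another in these stretches, and a match describes the sequence only. Sites outside these 250 bases were not searched, so the absence of a match does not show that a gene lacks the element.

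Hmox1 had the widest range of the 5 members. In sham it was at 6.64, 6.41 and 10.5 CPM in replicates 1 to 3. In injury it was at 131, 114 and 69.3 CPM, and in injury with rapamycin at 933, 703 and 103 CPM. In injury with TDN it was at 75.1, 49.7 and 58.0 CPM. Every one of the 9 injured libraries lay above every sham library, which held for 8.43% of the tested genes. The group means ran from sham (7.85 ± 2.29) through TDN (60.9 ± 12.9) and injury (105 ± 32) to rapamycin (580 ± 428 CPM; SD, n = 3 each). TDN overlapped with injury and injury with rapamycin, so that only the step from sham to TDN separated neighbours in this order.

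Sod2 followed the same order of groups. Its level in sham was 66.7, 79.4 and 79.2 CPM. In injury it was at 804, 261 and 79.8 CPM, so that replicate 3 lay just above the highest sham library while replicate 1 was 10.1-fold higher than replicate 3. Rapamycin tissue held 1143, 1132 and 313 CPM, and TDN tissue 160, 83.5 and 119 CPM. All 9 injured libraries were above all sham libraries for Sod2 as well, but injury replicate 3 (79.8 CPM) and TDN replicate 2 (83.5 CPM) exceeded the highest sham library (79.4 CPM) only narrowly. Mean levels were 75.1 ± 7.3 CPM for sham, 121 ± 38 for TDN, 382 ± 377 for injury and 863 ± 476 for rapamycin (SD, n = 3 each). TDN overlapped with injury, and injury with rapamycin.

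Nqo1 was highest in injury. Sham libraries held 97.2, 113 and 136 CPM and injury libraries 480, 314 and 250 CPM, without overlap. Rapamycin libraries were at 188, 439 and 163 CPM. TDN libraries were at 153, 61.5 and 285 CPM, so that replicate 2 lay below every sham library and replicate 3 above every sham library. The order of the means was sham (116 ± 20), TDN (167 ± 112), rapamycin (263 ± 153) and injury (348 ± 119 CPM; SD, n = 3 each), with overlap between each pair of neighbours. The spread of Nqo1 within TDN, an SD of 1.11 in log2 CPM, was larger than that of 95.5% of tested genes in the same libraries, whose median was 0.185.

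Sod1 had the narrowest range of group means. It was at 121, 103 and 83.7 CPM in sham, 138, 137 and 78.7 CPM in injury, and 130, 224 and 80.6 CPM in rapamycin. The TDN libraries lay close together at 79.7, 70.7 and 73.7 CPM, all below the lowest sham library, with an SD of 0.09 in log2 CPM. The group means were 74.7 ± 4.6 in TDN, 103 ± 19 in sham, 118 ± 34 in injury and 145 ± 73 CPM in rapamycin (SD, n = 3 each). Sham, injury and rapamycin overlapped.

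Cat had its lowest means in injury and rapamycin and its highest in TDN. Sham libraries were at 87.5, 135 and 111 CPM and injury libraries at 35.8, 97.4 and 79.1 CPM. Rapamycin libraries were at 76.0, 43.7 and 88.8 CPM, and TDN libraries at 108, 137 and 162 CPM. The means were 69.5 ± 23.2 in rapamycin, 70.8 ± 31.6 in injury, 111 ± 24 in sham and 136 ± 27 CPM in TDN (SD, n = 3 each). Every TDN library lay above every injury library, while the ranges of sham and TDN overlapped, as did those of sham and injury.

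**Figure D1:**
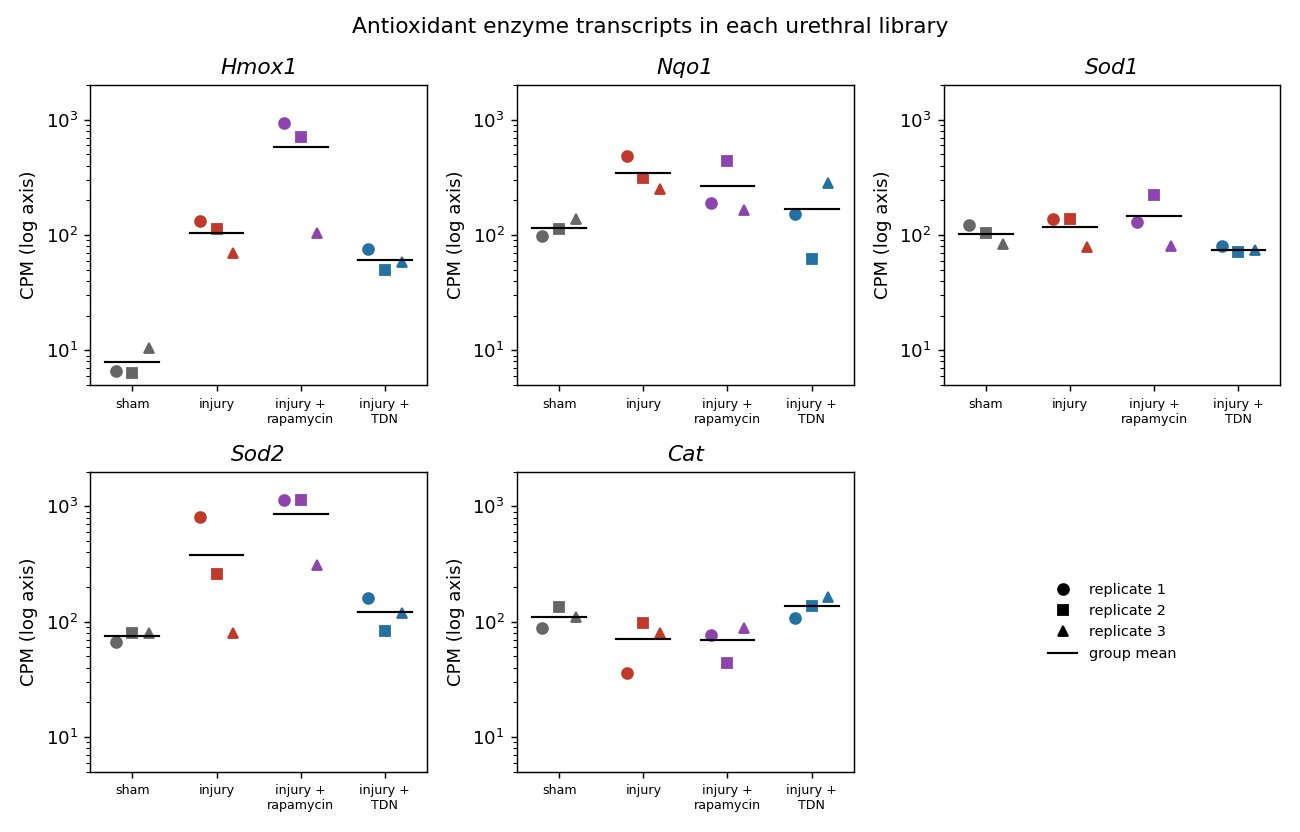
Level of each of the 5 enzyme transcripts in CPM, on a log axis, for the 3 libraries of each group (symbols, by replicate number) with the group mean (line). Hmox1 is at 6.41 to 10.5 CPM in sham and at 49.7 CPM or more in all injured libraries, while Sod1 stays between 70.7 and 224 CPM.

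Within the injured groups most members were high or low, in CPM, in the same libraries. Injury replicate 1 had the highest Hmox1, Nqo1, Sod1 and Sod2 and the lowest Cat of its group, and injury replicate 3 had the lowest Hmox1, Nqo1, Sod1 and Sod2. In rapamycin, replicate 3 had the lowest level of these 4 genes and the highest Cat. In TDN, replicate 1 had the highest Hmox1, Sod1 and Sod2 and the lowest Cat, while Nqo1 was highest in replicate 3. Sod1 differed little between injury replicates 1 and 2, at 138 and 137 CPM. As a share of total counts, without the TMM factor, some of these ranks changed. Sod1 was then highest in injury replicate 2 (0.0136% against 0.0126% in replicate 1) and in TDN replicate 3 (0.00827% against 0.00810% in replicate 1). Nqo1 was then lowest in rapamycin replicate 1 (0.0164% against 0.0175% in replicate 3). These libraries also differed from sham to unequal degrees over all genes. The distance of a library from the sham mean, as a root mean square over genes in log2 CPM, was 1.74, 1.42 and 1.11 in injury replicates 1 to 3. It was 1.62, 2.56 and 1.08 in rapamycin and 0.974, 0.888 and 0.843 in TDN. Sham replicates 1 to 3 themselves lay at 0.687, 0.559 and 0.779, each measured from the mean of the other sham libraries. The part of this library-wide difference in the members' levels was not tested. In log2 CPM the SD of Sod2 within injury was 1.67, larger than that of 92.4% of tested genes, whose median was 0.514. The SD of Hmox1 within rapamycin was 1.73, larger than that of 85.3%, around a median of 0.773.

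Injury against sham asked whether the transcripts changed in the injured urethra. Hmox1 rose 13.3-fold (95% interval 4.84 to 36.8), and it was the only 1 of the 5 enzymes called, where a call is a Benjamini-Hochberg adjusted p under 0.05 over all tested genes. Its log2 fold change was 3.74 with an SE of 0.66 (edgeR quasi-likelihood test, adjusted p = 0.0405), and 2.59% of tested genes had a larger change in either direction. Of all tested genes 0.571% were called higher and 0.651% were called in either direction. Sod2 had a log2 fold change of 2.35 (SE 0.73, edgeR adjusted p = 0.121) and Nqo1 of 1.59 (SE 0.54, edgeR adjusted p = 0.144), and neither passed. Sod1 differed by 0.20 (95% interval -0.57 to 0.96, edgeR adjusted p = 0.725) and Cat by -0.65 (95% interval -1.48 to 0.18, edgeR adjusted p = 0.314). Hmox1, Nqo1 and Sod2 were higher in every injury library than in every sham library, beside 19.4% of tested genes that were higher without overlap. The median log2 fold change was 1.59 for the 5 members and -0.01 for all tested genes.

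The call of Hmox1 after injury was close to the threshold, although its fold change moved little. With any single library left out, the log2 fold change was at least 3.54. The edgeR adjusted p was 0.186, 0.194 and 0.0739 without sham replicates 1 to 3, and 0.121 and 0.0604 without injury replicates 1 and 2. It was 0.0778, 0.0779 and 0.0863 without TDN replicates 1 to 3, libraries that are in neither group but share the estimate of the spread. Hmox1 passed without rapamycin replicates 1 to 3, at edgeR adjusted p of 0.0424, 0.0199 and 0.00995, and without the whole rapamycin group (0.00596). It also passed without injury replicate 3 (0.0163), with RLE scaling (0.0428) and without the expression filter (0.0365), all in edgeR. With a block for the replicate number, the log2 fold change was 3.60 and the edgeR adjusted p 0.0589. The adjusted p was 0.0567 with limma voom, 0.0558 in an edgeR fit of the 6 libraries alone and 4.11e-07 with DESeq2. Sod2 depended on injury replicate 1. Without it the log2 fold change was 1.18, and without injury replicate 3 it was 2.83 and passed (edgeR adjusted p = 0.0235). DESeq2 called Sod2 (adjusted p = 0.0143) and Nqo1 (adjusted p = 0.0478).

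TDN against injury asked whether treatment moved these transcripts away from their level in untreated injury. The edgeR test called 0 of the 5 members and 0% of all tested genes, and DESeq2 and limma voom also called 0 members. At an unadjusted p under 0.05 there were 2 members, Cat and Sod2, beside 6.13% of all tested genes. Cat was 1.92-fold higher in TDN (log2 fold change 0.94, SE 0.38, edgeR adjusted p = 0.649), and its libraries did not overlap, as for 10.2% of tested genes that were higher without overlap. Without injury replicate 1 its log2 fold change was 0.62. Sod2 had a log2 difference of -1.66 (SE 0.71, edgeR adjusted p = 0.649), which was -0.49 without injury replicate 1. The log2 differences of the others were -0.78 for Hmox1 (95% interval -2.10 to 0.53), -1.06 for Nqo1 (-2.23 to 0.11) and -0.66 for Sod1 (-1.43 to 0.11). The difference in Nqo1 was -1.69 without TDN replicate 3 and -0.67 without TDN replicate 2. The intervals of these 3 members include both no difference and a fall by more than 1 on the log2 scale.

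The TDN group was also compared with sham, to show which members remained away from the uninjured level. Hmox1 was 7.76-fold higher in TDN than in sham (95% interval 2.92 to 20.7, log2 fold change 2.96, SE 0.64), with no overlap between the groups. It was not called (edgeR adjusted p = 0.260), and 0% of all tested genes were called. This fit shares its estimate of the spread with the other groups. The median SD of tested genes in log2 CPM was 0.174 in sham and 0.185 in TDN, but 0.514 in injury and 0.773 in rapamycin. An edgeR fit of sham and TDN alone called 993 genes. The part of the unequal spread in this was not tested, and the absence of calls does not show that TDN resembled sham. Hmox1 ranked 52 by p among the 17521 genes, and 5.31% of them had an unadjusted p under 0.05. Its adjusted p was 5.79e-04 with DESeq2, which called this 1 member, and limma voom called 0. In edgeR fits it was 0.00772 over the 6 libraries alone, 0.0357 without the rapamycin group and 0.0464 without rapamycin replicate 3. It did not pass when any other single library was left out. It was then 0.885, 0.943 and 0.290 without sham replicates 1 to 3, 0.729, 0.470 and 0.514 without TDN replicates 1 to 3, and 0.149 to 0.302 without 1 of the other injury or rapamycin libraries.

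The other 4 members differed less between TDN and sham. Sod2 had a log2 fold change of 0.69 (95% interval -0.85 to 2.22), Nqo1 of 0.53 (-0.63 to 1.69), Sod1 of -0.46 (-1.23 to 0.31) and Cat of 0.29 (-0.53 to 1.12), each with an edgeR adjusted p of 1. TDN and sham were separated without overlap for Sod2, which was higher in TDN, and for Sod1, which was lower. Among all tested genes, 15.7% were higher and 16.9% lower without overlap. For Nqo1 the log2 fold change was -0.10 without TDN replicate 3 and 0.92 without TDN replicate 2.

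Injured tissue given rapamycin was compared with sham in the same way. Hmox1 and Sod2 rose, 2 of the 5 members, beside 9.54% of all tested genes called higher and 12.3% called in either direction. Hmox1 was 73.9-fold higher (95% interval 23.7 to 230, log2 fold change 6.21, SE 0.74, edgeR adjusted p = 0.0157) and ranked 4 by p among all tested genes. Sod2 was 11.5-fold higher (95% interval 3.56 to 37.0, log2 fold change 3.52, SE 0.77, edgeR adjusted p = 0.0283). Nqo1 had a log2 fold change of 1.19 (95% interval 0.01 to 2.36, edgeR adjusted p = 0.124). Its libraries did not overlap with sham, nor did those of Hmox1 and Sod2, all 3 higher in rapamycin, beside 23.8% of all tested genes. Sod1 differed by 0.50 (-0.27 to 1.26) and Cat by -0.67 (-1.50 to 0.15).

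These calls also depended on single libraries. For Hmox1 the edgeR adjusted p was 0.0988 without sham replicate 1 and 0.109 without sham replicate 2, with log2 fold changes of 5.67 to 6.70 when any 1 library was left out. For Sod2 it was 0.115, 0.120 and 0.0975 without sham replicates 1 to 3, 0.0565 without rapamycin replicate 1, and 0.0501 and 0.0506 without TDN replicates 2 and 3. Its log2 fold change then lay between 3.26 and 3.92. Both had an edgeR adjusted p of 0.0602 in a fit of the 6 libraries alone. Both were called without rapamycin replicate 2, the library that stood apart (edgeR adjusted p = 0.0150 for Hmox1 and 0.0490 for Sod2). The differences of the other members from sham were smaller without that library. The log2 fold change was then 0.66 for Nqo1, 0.09 for Sod1 and -0.38 for Cat, beside 1.19, 0.50 and -0.67 with all libraries.

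Rapamycin against injury compared the other treatment with untreated injury. The edgeR test called 0 of the 5 members and 0% of all tested genes, and 1 member had an unadjusted p under 0.05, beside 4.38% of all tested genes. This was Hmox1, 5.53-fold higher with rapamycin (95% interval 2.13 to 14.4, edgeR adjusted p = 0.902), a log2 fold change of 2.47 with an SE of 0.63. Rapamycin replicate 3, at 103 CPM, lay within the range of injury. Without that library the log2 fold change was 2.96 and passed (edgeR adjusted p = 0.0339), while without rapamycin replicate 1 it was 1.88 (edgeR adjusted p = 0.832). With all libraries DESeq2 called Hmox1 (adjusted p = 0.0302), and limma voom called 0 members. The libraries overlapped for all 5 members, where 3.94% of all tested genes did not overlap. Sod2 differed by 1.18 on the log2 scale (-0.37 to 2.73), Sod1 by 0.30 (-0.47 to 1.07), Nqo1 by -0.40 (-1.56 to 0.76) and Cat by -0.03 (-0.85 to 0.80). Leaving out injury replicate 1 gave a difference in Sod2 of 2.34, and leaving out injury replicate 3 gave 0.69, neither of which passed.

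**Figure D2:**
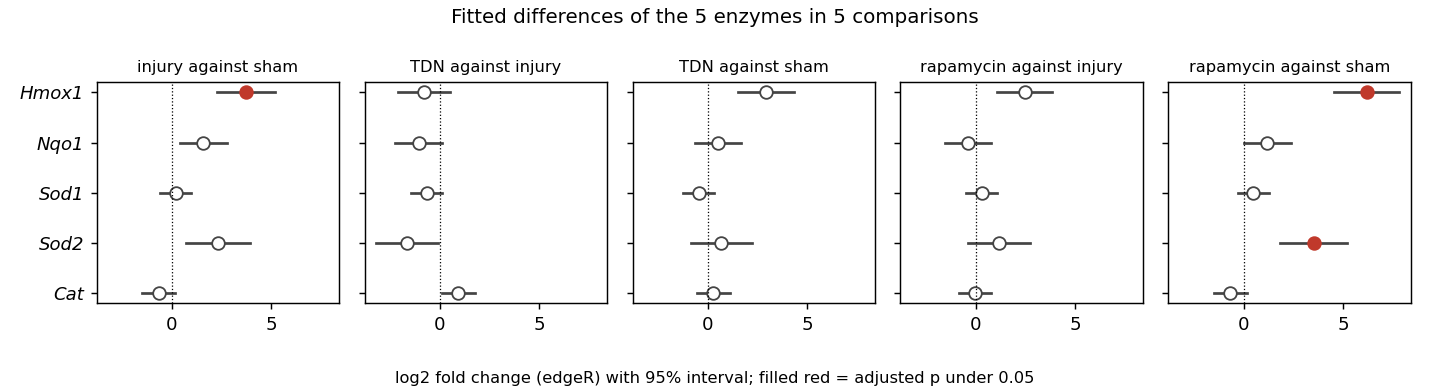
Fitted log2 fold change of each enzyme (circle) with its 95% interval (bar) in 5 comparisons, from edgeR over all 12 libraries, with calls filled in red. The 3 calls are Hmox1 in injury against sham (3.74) and in rapamycin against sham (6.21), and Sod2 in rapamycin against sham (3.52).

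The comparisons share libraries, so the values above are not independent of one another. Sham enters 3 of the 5 comparisons and injury enters 3. A joint test of any difference among the 4 groups called 0 of the 5 members and 0.0171% of all tested genes, while 25.6% of all tested genes had an unadjusted p under 0.05. Hmox1 ranked 4 by p (edgeR adjusted p = 0.0551) and Sod2 ranked 467 (edgeR adjusted p = 0.0719). The adjusted p was 0.205 for Nqo1, 0.213 for Cat and 0.278 for Sod1 in the same edgeR test. Hmox1 and Sod2 were the 2 members with an unadjusted p under 0.05. DESeq2 called both, and limma voom called 0. For Hmox1 the edgeR adjusted p was 0.0425 without injury replicate 1, 0.0180 without injury replicate 3, 0.0355 without rapamycin replicate 2 and 6.18e-04 without rapamycin replicate 3. For Sod2 it was 0.0461 without injury replicate 1, 0.0195 without injury replicate 3 and 0.0228 without rapamycin replicate 3. Without each of the other libraries the edgeR adjusted p stayed above the threshold, at 0.0709 to 0.214 for Hmox1 and 0.0892 to 0.228 for Sod2, with the highest value of both without sham replicate 2.

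**Figure D3:**
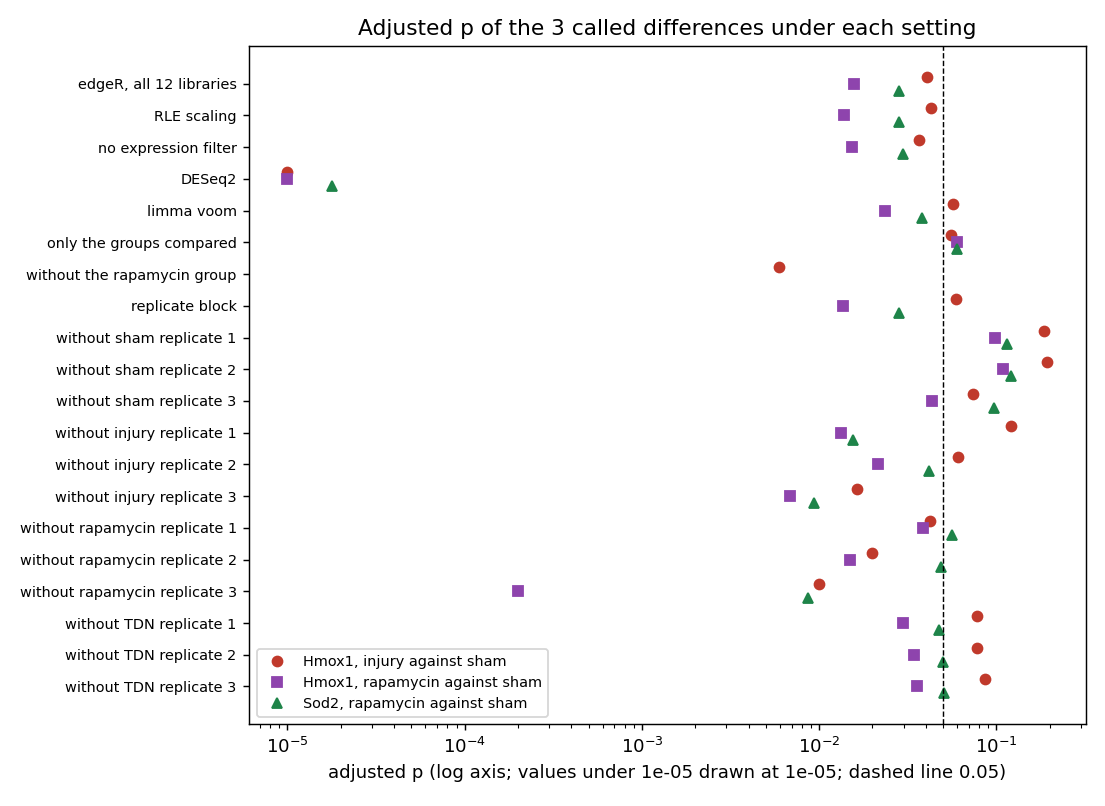
Adjusted p (log axis) of the 3 called differences under each setting, with the threshold as a dashed line. For Hmox1 in injury against sham the edgeR adjusted p lies above the threshold when a sham, injury or TDN library is left out, except injury replicate 3, and reaches 0.194 without sham replicate 2.

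Ratios between members within a library do not depend on the scaling of that library. Gene length cancels when a ratio is compared between libraries. These ratios are descriptions, formed after the values were seen. The ratio of Sod2 to Sod1 counts was 0.550, 0.770 and 0.946 in sham. It was 5.83, 1.91 and 1.01 in injury, 8.79, 5.06 and 3.88 in rapamycin and 2.01, 1.18 and 1.62 in TDN. Every injured library thus had a higher ratio than every sham library. On the log2 scale the mean was above sham by 1.60 in injury, 2.92 in rapamycin and 1.09 in TDN, and the SD was largest in injury at 1.28, beside 0.40 in sham, 0.39 in TDN and 0.60 in rapamycin (n = 3 each).

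The NRF2 targets did not keep a constant proportion. The ratio of Hmox1 to Nqo1 counts was 0.0567 to 0.0769 in sham, 0.273 to 0.363 in injury, 0.633 to 4.97 in rapamycin and 0.203 to 0.809 in TDN. The injury libraries, which differed 10.1-fold in Sod2, kept a narrow Hmox1 to Nqo1 ratio with an SD of 0.23 in log2. The SD was similar in sham at 0.22, against 1.49 in rapamycin and 1.01 in TDN. All 3 rapamycin libraries had a higher ratio than all 3 injury libraries. The ratio of Hmox1 to Cat was 0.0477 to 0.0948 in sham, 0.357 to 0.696 in TDN, 0.876 to 3.66 in injury and 1.16 to 16.1 in rapamycin. In this ratio TDN lay between sham and injury without overlap with either. Cat alone also separated TDN from injury, and Hmox1 alone separated TDN from sham, while Hmox1 overlapped between TDN and injury. How often ratios of other gene pairs separate the groups was not counted for any of these ratios.

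**Figure D4:**
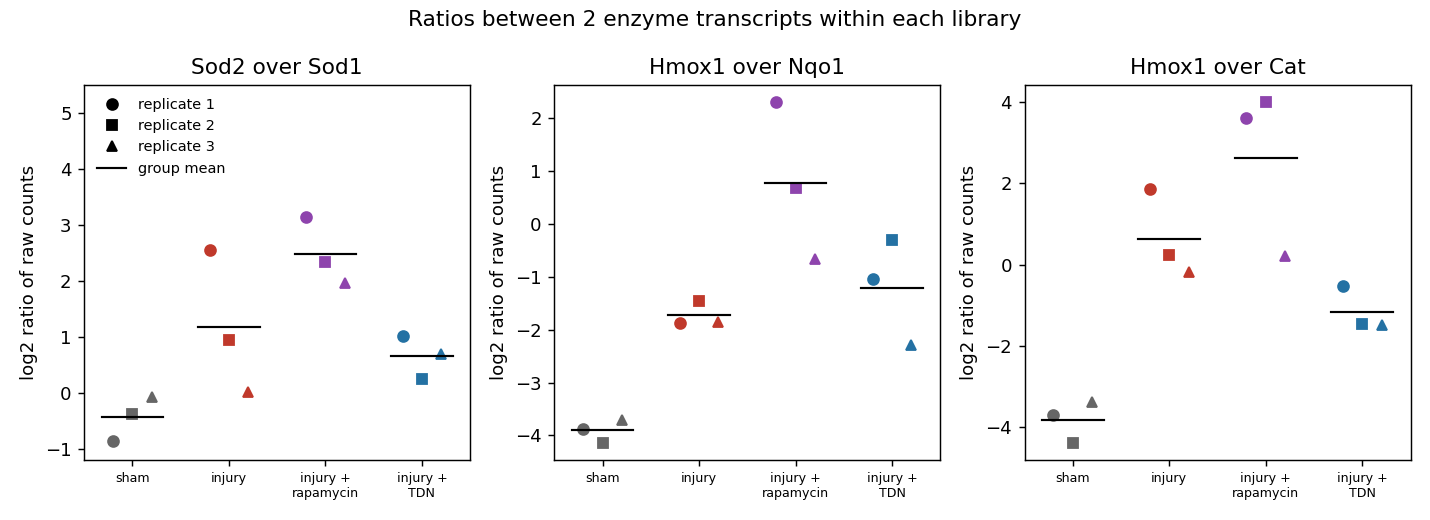
Log2 ratio of the raw counts of 2 enzyme transcripts in each library (symbols, by replicate number) with the group mean (line). In the panel of Hmox1 over Cat all TDN libraries lie above sham and below injury, and in the panel of Sod2 over Sod1 all injured libraries lie above sham.

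The likeness of expression patterns was measured as the root mean square difference between log2 CPM values centred over the 12 libraries. Among the members, Nqo1 and Sod1 were nearest to each other (0.71) and Hmox1 and Cat farthest apart (2.58), while Hmox1 and Sod2 differed by 1.15. Among 11871 other genes with a mean of at least 5 CPM, the nearest to Hmox1 were ENSRNOG00000027811 (0.70) and ENSRNOG00000014956 (0.77), for which no symbol was at hand. ENSRNOG00000027811 had a sham level of 3.96 ± 0.22 CPM and a TDN level of 22.4 ± 7.6, with 37.3 ± 30.2 after injury and 115 ± 55 after rapamycin (SD, n = 3 each). ENSRNOG00000014956 was at 3.80 ± 0.40, 20.0 ± 6.0, 30.9 ± 21.5 and 116 ± 95 CPM in the same groups (SD, n = 3 each). Their order of group means, the same as that of Hmox1, follows from their selection by likeness over these libraries.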

How the data were processed

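The authors deposited whole-number counts for each Ensembl gene in each library, without normalization. Per the labels' protocols, the libraries were poly(A)-enriched, with reads from both fragment ends. Per the submitters' processing notes, the genome was rat build Rnor 6.0. The aligner, counter, annotation release and strand setting were not given in the sources used here. How reads from overlapping or near-identical genes were assigned is therefore not known here. Another 3 columns of the table match no labelled sample and were left out. Groups came from the treatment labels.

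The main test was edgeR's quasi-likelihood test (edgeR 4.0.16, R 4.3.3). Counts were scaled by TMM, and the default expression filter kept 17521 of 32623 genes. The model had 4 group means for 12 libraries, no covariate and 1 shared estimate of the spread with 8 residual degrees of freedom. P-values were Benjamini-Hochberg adjusted over all tested genes. SEs were computed from the log2 fold change and the F statistic, and 95% intervals from the t distribution. The intervals used 10.8 degrees of freedom, the total that edgeR gave after combining each gene's spread with that of other genes. Log2 CPM used a prior count of 2. The code of the fit was tested on simulated data that had the same spread for all genes and groups. The groups here were unequal in spread, so that test does not show how the calls behave in these data. Alternatives were RLE scaling, no filter, DESeq2 1.42.0, limma 3.58.1 voom, fits of fewer groups, the replicate number as a block, and each library left out in turn. For sham and injury, the deviations from the group means of libraries with the same number correlated at 0.107, 0.138 and 0.261, so the block is reported for that comparison. For injury and rapamycin they correlated at 0.0921, 0.156 and 0.550, and the block is given for Hmox1 below. The labels do not state such a pairing, which was read from the data.

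The named genes were the 5 members and, by a likeness rule, the 2 nearest genes to the member with the widest range of group means. Lists of other antioxidant, heme, regulator and superoxide-producing genes and of cell type markers were set by symbol. They were not evaluated, because 0 of the Ensembl IDs were found in the gene table (47357 rat genes, GRCr8). The members and lists were chosen with earlier results of these data known.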

Additional observations from a re-analysis of the deposited data

How the results depend on the processing

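The direction of the fitted difference was kept under every alternative run for all members in injury against sham, TDN against injury and rapamycin against sham. Cat in rapamycin against injury, near 0 at -0.03, was 0.0159 with RLE scaling, 0.0159 with DESeq2, 0.0517 with limma voom, 0.0597 with the replicate block, and -0.345 to 0.261 with single libraries left out. Sod1 in the same comparison lay between -0.162 and 0.584, and Nqo1 in TDN against sham between -0.105 and 0.924, with single libraries left out. The cause was not tested.

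Counts of calls depended on the tool and on which libraries shared the estimate of the spread. DESeq2 called 1924 genes in injury against sham (3 of the 5 members), 44 in TDN against injury, 314 in TDN against sham (1 member), 30 in rapamycin against injury (1 member), 5763 in rapamycin against sham and 3790 in the joint test (2 members). The edgeR counts were 114, 0, 0, 0, 2162 and 3 genes, with 1, 0, 0, 0, 2 and 0 members. Fits of only the groups compared called 0 genes and 0 members in injury against sham, 993 genes and 1 member in TDN against sham, and 34 genes and 0 members in rapamycin against sham. Without the rapamycin group 2616 genes were called in injury against sham, and 10 genes and 1 member in TDN against sham. Without a filter 1157 genes were called in rapamycin against sham. Limma voom called 0 members in injury against sham and 0 genes in the joint test. The replicate block gave 0 members in injury against sham, and 140 genes and 1 member (Hmox1, edgeR adjusted p = 0.0478) in the joint test, and changed no other call of a member. In rapamycin against injury, the deviations of same-numbered libraries correlated at 0.0921, 0.156 and 0.550, all positive as in injury against sham. With the block, Hmox1 had a log2 fold change of 2.35 there (edgeR adjusted p = 0.866). In the remaining comparisons the correlations ran from -0.243 to 0.196, with a negative value in each.

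Leaving out single libraries gave 0 to 2117 genes and 0 to 2 members in injury against sham, 0 genes and 0 members in TDN against injury, 0 to 16 genes and 0 to 1 members in TDN against sham, 0 to 3 genes and 0 to 1 members in rapamycin against injury, 1 to 7249 genes and 0 to 2 members in rapamycin against sham, and 0 to 3367 genes and 0 to 2 members in the joint test. The members had 363 counts or more in each library, so counting error was at most 5.25%.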
